A study of Mus musculus with 51 samples.

Results

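The extra-embryonic ectoderm (ExE) of the mouse embryo carried 2185 autosomal H3K27me3 domains of at least 20000 bp that overlapped no H3K27me3 peak of the epiblast. They were selected from the 22515 autosomal H3K27me3 peaks of ExE, and a domain was kept when it overlapped an ExE peak of both wild-type crosses and no epiblast peak of either cross. Length and the wild-type H3K27me3 of both tissues therefore chose the domains, and these values are given below as a description, without a test. For comparison, 4521 ExE peaks of the same minimum length overlapped an epiblast peak (long shared domains), and 5275 ExE-only peaks were shorter than 20 kb.

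The study profiled H3K4me3, H3K27me3 and H3K36me3 by low-input native ChIP-seq, together with input chromatin, in ExE and epiblast dissected from embryos at embryonic day 6.5. B6/CAST embryos had a C57BL6/Babr mother and a CAST father, CAST/B6 embryos were the reverse cross, and both were wild type. In matDKO/CAST the mothers were Dnmt3a floxed/floxed, Dnmt3b floxed/floxed and carried Zp3-Cre, which is active in growing oocytes, so that these embryos came from eggs without DNA methylation; the mothers were of mixed B6/129 background and the fathers were CAST. Each pool held 4 epiblasts or 8 ExE, about 2500 cells, every cross, tissue and mark had 2 libraries, and all embryos were F1 hybrids, which allowed reads to be assigned to a parent.

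H3K27me3 is deposited by Polycomb repressive complex 2 and marks genes that are held silent, most often at CpG-rich starts of developmental regulators. Broad H3K27me3 domains can also spread over gene-poor chromatin, and in the placental lineage several long non-coding RNAs of imprinted regions, such as Airn and Kcnq1ot1, are known to repress neighbouring genes on the paternal chromosome. H3K4me3 marks active or poised starts, and H3K36me3 is laid down over the bodies of transcribed genes.

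The depth of a library, recovered from the RPKM table, ranged from 3680000 to 22900000 reads for H3K27me3, from 4010000 to 17900000 for H3K4me3 and from 2090000 to 12600000 for H3K36me3. Tissue labels were checked on H3K4me3 at marker starts. The summed level of 11 epiblast markers was 170 to 240 RPKM in the 4 wild-type ExE libraries and 288 to 384 RPKM in the 4 epiblast libraries, and that of 15 ExE markers was 242 to 327 RPKM in ExE and 189 to 258 RPKM in epiblast. Epiblast marker sums did not overlap between the tissues, and those of ExE markers did. The 14 visceral endoderm markers summed to 86.9 to 140 RPKM in ExE and 66.1 to 111 RPKM in epiblast, and 11 decidua and blood markers to 39.6 to 53.8 RPKM and 39.4 to 67.1 RPKM, with overlapping ranges. In pooled tissue, fewer cells with a mark and less mark per cell cannot be told apart.

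Sequences at the starts of 4 genes inside these domains show what kind of promoter they hold. Each runs 5′ to 3′ along the gene from 250 bases before to 50 bases after the RefSeq start on GRCm38.p6, with every CG dinucleotide in capitals. The windows lie at chr1:72824230-72824529 (Igfbp2, plus strand), chr17:14694213-14694512 (Thbs2, minus strand), chr4:147985650-147985949 (Nppb, plus strand) and chr11:100050502-100050801 (Krt31, minus strand). Igfbp2 and Thbs2 were chosen because H3K4me3 was lower there in ExE, Nppb because it was higher, and Krt31 as a start without H3K4me3 from 1 of the 2 domains that held the most starts.
Igfbp2: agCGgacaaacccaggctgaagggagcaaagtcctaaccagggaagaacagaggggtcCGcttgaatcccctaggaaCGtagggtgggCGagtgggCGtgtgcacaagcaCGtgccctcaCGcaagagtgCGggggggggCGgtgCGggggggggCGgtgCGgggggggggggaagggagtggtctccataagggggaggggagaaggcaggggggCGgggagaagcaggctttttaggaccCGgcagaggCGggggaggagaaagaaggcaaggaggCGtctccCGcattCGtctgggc
Thbs2: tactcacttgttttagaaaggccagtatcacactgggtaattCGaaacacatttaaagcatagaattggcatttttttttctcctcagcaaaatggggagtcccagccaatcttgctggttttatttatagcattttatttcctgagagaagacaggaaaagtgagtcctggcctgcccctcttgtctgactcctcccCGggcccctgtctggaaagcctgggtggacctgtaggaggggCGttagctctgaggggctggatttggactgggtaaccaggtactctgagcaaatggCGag
Nppb: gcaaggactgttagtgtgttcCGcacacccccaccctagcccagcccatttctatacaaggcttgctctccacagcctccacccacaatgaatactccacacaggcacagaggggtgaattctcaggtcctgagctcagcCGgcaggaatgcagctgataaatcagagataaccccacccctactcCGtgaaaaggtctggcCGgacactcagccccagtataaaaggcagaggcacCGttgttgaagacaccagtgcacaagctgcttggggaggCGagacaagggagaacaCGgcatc
Krt31: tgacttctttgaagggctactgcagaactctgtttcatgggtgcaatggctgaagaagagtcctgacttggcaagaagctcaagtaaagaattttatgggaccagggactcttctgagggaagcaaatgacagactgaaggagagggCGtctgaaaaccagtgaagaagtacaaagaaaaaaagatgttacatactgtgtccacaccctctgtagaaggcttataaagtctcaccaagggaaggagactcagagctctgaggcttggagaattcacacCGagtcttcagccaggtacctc

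These windows held 18 CG in Igfbp2, 4 in Thbs2, 7 in Nppb and 2 in Krt31. Over all 434 protein-coding starts in the domains, the median was 4 CG per 300 bases (quartiles 2 and 8), against 10 in the long shared domains, 5 in the shorter ExE-only peaks and 12 over all 20753 autosomal protein-coding starts, counted on the same windows around the GENCODE starts. At least 10 CG were present at 19.4% of the starts in domains and at 54.5% of all starts. Starts in domains with a mean H3K4me3 of at least 1 RPKM in either tissue (119 genes) had a median of 12 CG, and the other 315 had a median of 3.

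The domains covered 80.3 Mb, or 3.26% of the autosomes. Their median length was 29.5 kb and the longest reached 381 kb; 347 were at least 50 kb and 43 at least 100 kb long. Long shared domains were longer, with a median of 44 kb and 289 Mb in all. The domains lay 132 kb apart at the median, and 723 of them (33.1%) lay within 50 kb of another. Chromosome 17 had the largest share of its length in domains, 5.68%, followed by chromosomes 9 (4.51%) and 7 (4.42%), and chromosomes 18 (1.92%) and 10 (2.01%) had the smallest. ExE peaks of CAST/B6 covered a median of 100% of a domain and those of B6/CAST 69.5%, and 624 domains were less than 50% covered in B6/CAST against 61 in CAST/B6.

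H3K27me3 in the domains stood above the epiblast level in each of the 4 wild-type ExE libraries. The median domain had 0.757 and 0.677 RPKM in B6/CAST ExE and 0.766 and 0.752 RPKM in CAST/B6 ExE. In epiblast it had 0.518 and 0.518 RPKM in B6/CAST and 0.571 and 0.465 RPKM in CAST/B6. In RPKM, epiblast values lay in the range of input chromatin, whose medians over the same domains were 0.505 to 0.551 RPKM, or close to it, whereas ExE values lay above every input. Relative to the autosomal mean of its own library, the median domain had 1.70 to 1.84 times the mean in wild-type ExE, 1.28 to 1.42 times in epiblast and 1.11 to 1.19 times in the wild-type inputs. On this scale every epiblast library lay above every input, so the absence of an epiblast peak did not mean that H3K27me3 was absent there. In the long shared domains ExE reached 0.964 to 1.18 RPKM and epiblast 0.764 to 0.939 RPKM, so the ExE signal of the ExE-only domains was also the weaker one. At a single domain the median ratio of ExE to epiblast was 1.43, and in 1592 domains (72.9%) all 4 ExE libraries exceeded all 4 epiblast libraries.

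The 243 domains just inside the length threshold (20000 to 21000 bp) had a median of 0.729 RPKM in wild-type ExE and 0.517 RPKM in epiblast. The 143 otherwise eligible peaks just outside it (19000 to 19500 bp) had 0.736 and 0.503 RPKM, and all domains 0.736 and 0.52 RPKM. The domains at the threshold thus had nearly the same levels on either side.

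**Figure D1:**
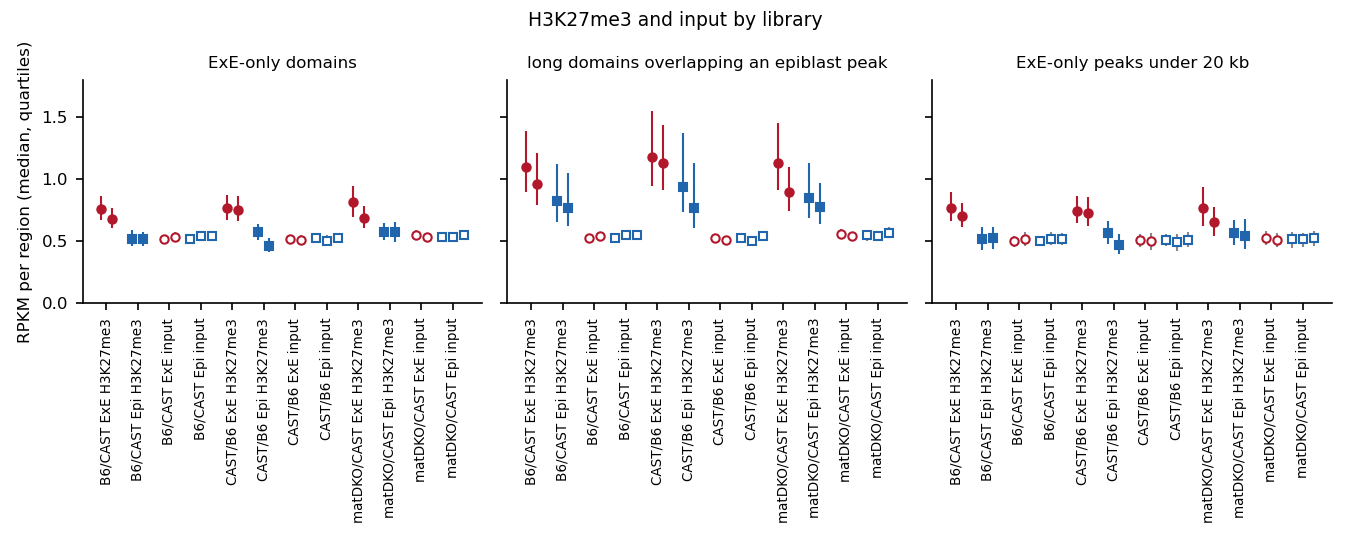
H3K27me3 (filled) and input (open) by library in RPKM per region, for ExE (circles, red) and epiblast (squares, blue) of each cross; a point is the median over the regions and its line spans the quartiles. In the ExE-only domains epiblast H3K27me3 overlaps the inputs on this scale, which is not set against each library's autosomal mean, and ExE sits above them, and in long shared domains both tissues sit above the inputs.

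Domain edges were sharp on average. Wild-type ExE H3K27me3 rose from 0.352 RPKM 2 kb outside an edge to 0.784 RPKM 2 kb inside, and epiblast from 0.326 to 0.541 RPKM. Input moved in the same direction by less, from 0.474 to 0.526 RPKM in ExE. At the edges of long shared domains ExE rose from 0.303 to 1.04 RPKM over the same distance and to 1.27 RPKM at 9 kb inside. Peak positions were set on these reads, so a step at the edge was built into the selection. H3K4me3, which the selection did not use, ran the other way: its mean fell from 1.02 RPKM at 2 kb outside to 0.308 RPKM at 2 kb inside in ExE and, to 3 digits, between the same values in epiblast.

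**Figure D2:**
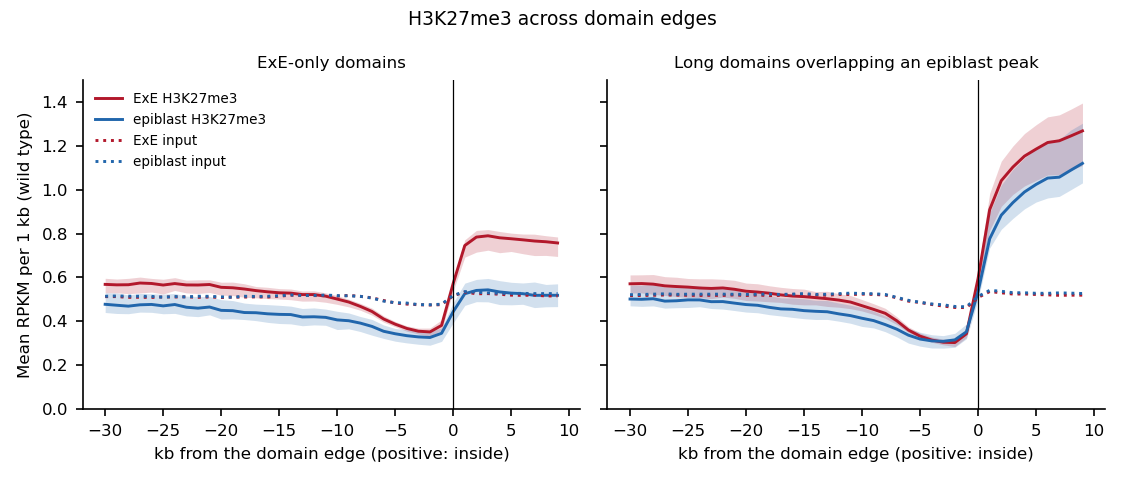
Mean signal in 1 kb windows from 30 kb outside to 9 kb inside the domain edge, as the mean of 4 wild-type libraries with a band from the lowest to the highest (H3K27me3, solid) or the mean alone (input, dotted). Inside the ExE-only domains ExE reaches 0.784 RPKM at 2 kb and epiblast, which also steps up at the edge, 0.541 RPKM.

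The matDKO/CAST libraries took no part in the selection, and the tissues were compared again in them. The median domain had 0.814 and 0.69 RPKM in matDKO/CAST ExE and 0.575 and 0.574 RPKM in matDKO/CAST epiblast. Relative to the autosomal mean of each library these were 1.90 and 1.61 times the mean in ExE and 1.43 and 1.50 times in epiblast, and the median ratio of ExE to epiblast at a domain was 1.31. Both ExE libraries exceeded both epiblast libraries in 1612 domains (73.8%), against 45.1% of all autosomal ExE peaks. With limma on log2(RPKM + 0.5) and Benjamini-Hochberg adjustment over all 22515 peaks, H3K27me3 was higher in ExE in 337 domains (15.4%), against 10.0% of all peaks, and lower in 0 domains, against 2.21% of all peaks; edgeR on recovered reads gave 577 and 0. The median difference was 0.22 on the log2 scale in domains and 0.15 over all peaks. Centring each library on its median shifted the median of all peaks by -0.15 and left 147 domains higher and 4 lower, with a median difference of 0.06 in domains. The number of called domains rested on single libraries: it was 18 without replicate 2 of matDKO/CAST ExE and 84 without replicate 2 of matDKO/CAST epiblast, which was the shallowest H3K27me3 library.

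In ExE, total H3K27me3 of the domains seldom differed between matDKO/CAST and the wild-type crosses. It was higher in matDKO/CAST in 1 domain (limma, 0.107% of all peaks) and lower in 1 (0.360% of all peaks), whereas an unadjusted p below 0.05 was reached by 96 and 60 domains and edgeR on recovered reads called 24 and 5. The higher one was chr3:37766501-37799000, with 1.8 and 1.64 RPKM in matDKO/CAST ExE against 0.874, 0.678, 0.598 and 0.655 RPKM in wild-type ExE (log2 difference 0.89 ± 0.12 SE, limma adjusted p = 0.0056). The lower one, chr2:122650501-122678000, had 0.443 and 0.371 RPKM against 0.792, 0.785, 0.9 and 0.992 RPKM (-0.59 ± 0.12, adjusted p = 0.046). The groups did not overlap in either domain. Both calls were lost when either matDKO/CAST library was left out, and the lower call also when any of the 4 wild-type libraries was; with each library centred on its median 11 domains were higher and 1 lower.

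The domains were poor in genes. They held 434 protein-coding starts, or 5.4 per Mb, against 8.45 per Mb over the autosomes, 17.4 per Mb in long shared domains and 9.19 per Mb in shorter ExE-only peaks. No protein-coding start lay in 1836 domains (84.0%), against 32.8% of the long shared domains and 91.5% of the shorter ExE-only peaks, sets that also differ in length. A single start lay in 288 domains, 2 in 47 and 3 or more in 14. Of the domains without a start, 1110 overlapped no protein-coding gene, which is 50.8% of all domains, and 652 (29.8% of all) lay for more than 50% of their length within 1. The nearest start was 56.8 kb away at the median where none lay inside. By length, 37.3% of the domains lay in protein-coding genes, close to the 40.3% of the autosomes, and long non-coding RNA starts were not sparse, at 5.34 per Mb against 3.83 over the autosomes and 7.35 in long shared domains.

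In base composition the domains lay between the long shared domains and the autosomes for GC and CpG content, and below both for repeats. Median GC content was 44.5%, against 45.8% in long shared domains and 41.9% over the autosomes. CpG dinucleotides numbered 9.53 per kb against 11.9 and 8.51, and soft-masked repeats made up 23.8% of a domain against 25.5% and 33.5%.

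None of the regulators and markers listed for this stage had its start in a domain. This held for 28 germ layer and axis regulators, 21 pluripotency regulators, 11 epiblast, 15 ExE, 14 visceral endoderm and 11 decidua and blood markers. Of the same lists, 23 germ layer and axis regulators and 12 pluripotency regulators lay in long shared domains. Of 41 forkhead genes, 1 lay in a domain, Foxi1 (2.44%), and 26 in long shared domains. By gene name, no Hox (39), Sox (18), T-box (12), cadherin (23) or clustered protocadherin (55) gene lay in a domain, whereas 39, 15, 9, 13 and 53 of them lay in long shared domains. Over all protein-coding genes, 2.09% had their start in a domain and 24.2% in a long shared domain. Keratins had 7 of 53 starts in domains (13.2%), all in 2 domains, and 38 (71.7%) in long shared domains. Olfactory receptors had 24 of 1126 starts in domains (2.13%), solute carriers 11 of 358 (3.07%) and zinc finger genes 5 of 385 (1.3%).

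The most starts in a domain were 6, found in 2 domains. The domain chr11:100030501-100124500 spanned 94 kb and held 6 type I keratin genes (Krt13, Krt31, Krt32, Krt34, Krt35 and Krt36), structural proteins of hair and epithelium. Its H3K27me3 was 0.858, 0.704, 0.932 and 0.909 RPKM in wild-type ExE and 0.762, 0.607, 0.724 and 0.545 RPKM in epiblast, so the tissues overlapped. Nearby, chr11:99571001-99611000 also held 6 starts, 4 of them keratin-associated proteins, with 0.499 to 0.786 RPKM in ExE and 0.434 to 0.645 RPKM in epiblast, which overlapped too. Ccl2, Ccl7 and Ccl11, chemokines that attract monocytes and eosinophils, shared chr11:82028501-82082000 (0.564 to 0.676 RPKM in ExE, 0.559 to 0.684 in epiblast). Olfactory receptor genes Olfr550, Olfr551, Olfr552 and Olfr553 shared chr7:102566001-102621500 (0.6 to 0.647 RPKM in ExE, 0.448 to 0.548 in epiblast), where the tissues did not overlap. In these gene-rich domains the tissues lay closer together than in the median domain.

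The domains with the strongest ExE H3K27me3 were of other kinds. At chr2:157599001-157620000, 27.7 kb from the start of Blcap, ExE had 1.48, 1.25, 1.68 and 1.68 RPKM and epiblast 0.902, 0.665, 1.06 and 0.717 RPKM. Around Thbs2, which encodes the matrix protein thrombospondin 2, chr17:14587001-14758000 had 1.48, 1.26, 1.57 and 1.34 RPKM against 0.635, 0.528, 0.618 and 0.481 RPKM. All ExE libraries lay above all epiblast libraries in both, as the selection favours. The longest domain, chr17:9812001-10193000, had no protein-coding start and lay 127 kb from that of Qk (1.16, 1.12, 0.958 and 0.92 RPKM against 0.516, 0.465, 0.449 and 0.385 RPKM). Of the 10 longest domains, 6 lay on chromosomes 17 and 7 within 15 Mb of Airn or Kcnq1ot1, and their allelic reads are described further on.

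H3K4me3 was scarce at the starts in domains. In the 8 wild-type libraries, 23.3 to 27.2% of the 434 starts had at least 1 RPKM within 1 kb, against 63.8 to 66.6% of all starts, and the median start had 0.131 to 0.313 RPKM against 5.5 to 10.9 RPKM. H3K4me3 peaks of both crosses overlapped 527 domains (24.1%) in ExE and 628 (28.7%) in epiblast, against 81.4% and 84.2% of long shared domains. Both tissues had such a peak in 432 domains, epiblast alone in 196 and ExE alone in 95. H3K36me3 peaks of both crosses overlapped 42 domains (1.92%) in ExE and 87 (3.98%) in epiblast, against 10.4% and 8.54% of long shared domains.

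Between the tissues, H3K4me3 fell in ExE at 27 of the 434 starts (6.22%), against 7.77% of all 20753 starts, and rose at 14 (3.23%), against 2.00% of all starts (limma, adjusted over all starts). Neither share was far from that over all genes. Same-numbered H3K4me3 libraries of ExE and epiblast varied together, and with the replicate number as a block 2 starts were higher and 15 lower, of which 13 were among the 41 called without it. Centring each library on its median shifted the median of all starts by 0.3 on the log2 scale and gave 72 higher and 33 lower, so the balance of directions depended on the scaling. Markers of other cell types moved with the same contrast: of the 14 visceral endoderm markers 5 were higher in ExE and 1 lower, and of the 11 decidua and blood markers 0 were higher and 4 lower, while of the 15 ExE markers 3 were higher and 0 lower. None of them starts in a domain, and their part in these counts was not tested. In B6/CAST alone 4 starts were higher and 9 lower, and in CAST/B6 alone 6 and 10. Without B6/CAST ExE replicate 1, B6/CAST ExE replicate 2, CAST/B6 ExE replicate 1, B6/CAST Epi replicate 1 or CAST/B6 Epi replicate 2 the number called fell to between 21 and 25.

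Among the starts with lower H3K4me3 in ExE was that of Igfbp2, which encodes a secreted binding protein of insulin-like growth factors, with the CG-rich start shown above. It had 11.9, 11, 6.98 and 12.1 RPKM in ExE and 31.6, 25.6, 31.9 and 31.9 RPKM in epiblast (log2 difference -1.51 ± 0.21 SE, n = 4 and 4, limma adjusted p = 0.0031). Every epiblast library exceeded every ExE library. The pro-apoptotic BH3-only gene Pmaip1 had 12.9, 12.6, 8.13 and 15.0 RPKM in ExE and 36, 28.9, 42.5 and 34.2 RPKM in epiblast (-1.52 ± 0.20, adjusted p = 0.0024), again without overlap. For Thbs2 the values were 1.45, 1.77, 1.44 and 1.29 RPKM against 4.7, 5.62, 4.43 and 3.81 RPKM (-1.36 ± 0.14, adjusted p = 0.0015). Col1a2, a chain of type I collagen, had 3.39, 4.07, 2.54 and 4.43 RPKM against 11.1, 11.3, 10.3 and 9.64 RPKM (-1.45 ± 0.17, adjusted p = 0.0017). Neither Thbs2 nor Col1a2 had an ExE library within the epiblast range.

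The other starts named among those that fell were Lrrc55, an auxiliary subunit of potassium channels (-1.64 ± 0.14), Slc26a5, the motor protein prestin of the inner ear (-1.46 ± 0.16), the integrin gene Itga6 (-1.13 ± 0.20) and the meiotic gene Hormad2 (-1.07 ± 0.20). Ifitm7 and 2900011O08Rik also fell (-1.38 ± 0.13), but their starts lie so close together that they shared their windows, and the signal cannot be assigned to 1 of them. With the replicate block 7 of the 10 named starts that fell (Igfbp2, Pmaip1, Thbs2 and Col1a2 among them) still passed the test, and Slc26a5, Itga6 and Hormad2 did not (limma adjusted p = 0.051, 0.069 and 0.064). Across these named starts the mean level in ExE lay between 0.634 RPKM (Itga6) and 12.1 RPKM (Pmaip1).

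Starts with higher H3K4me3 in ExE had low levels. Nppb, which encodes B-type natriuretic peptide, had 2.87, 1.89, 1.79 and 1.94 RPKM in ExE and 1.44, 1.3, 0.784 and 0.523 RPKM in epiblast (0.82 ± 0.17, adjusted p = 0.016). Acap1, an activator of the GTPase of ARF proteins, had 1.59, 1.31, 0.938 and 1.01 RPKM against 0.336, 0.432, 0.228 and 0.224 RPKM (1.08 ± 0.13, adjusted p = 0.0018). In both genes all ExE libraries lay above all epiblast libraries. The adaptor gene Pstpip1 (0.85 ± 0.21), the BCL2 family gene Bcl2l10 (0.99 ± 0.19), the sperm potassium channel gene Kcnu1 (0.98 ± 0.18), the chemokine gene Xcl1 (0.70 ± 0.12), Iqcf3 (0.76 ± 0.15) and 4931417E11Rik (0.64 ± 0.11) also rose, and Rnf14 and Pcdh12, which share a window, rose by 1.04 ± 0.15. No mean of these in ExE exceeded the 2.12 RPKM of Nppb. With the replicate block 1 of these 10 named starts still passed, 4931417E11Rik (limma adjusted p = 0.047), whereas Nppb (adjusted p = 0.14), Acap1 (adjusted p = 0.07) and the other 7 did not.

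**Figure D3:**
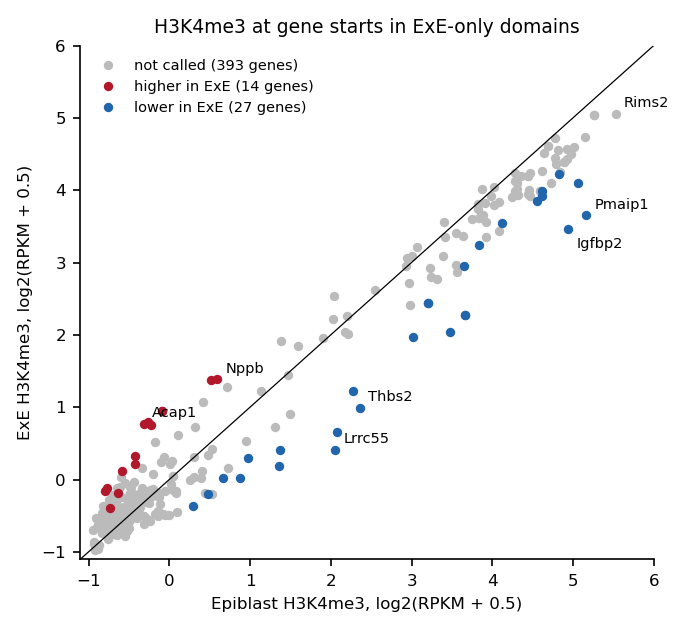
Mean H3K4me3 within 1 kb of the 434 protein-coding starts in ExE-only domains, epiblast (x) against ExE (y) on log2(RPKM + 0.5), each point 1 gene and each axis the mean of 4 wild-type libraries; the line marks equal values. Most starts sit near the floor in both tissues, the 14 called higher in ExE have low levels and the 27 called lower reach up to the level of Pmaip1.

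The highest H3K4me3 in epiblast among these starts was found at Rims2, a presynaptic scaffold gene, with 45.5, 31.9, 56.0 and 49.1 RPKM in epiblast and 27.7, 27, 33.0 and 43.5 RPKM in ExE. The ranges overlapped and the difference did not pass the test (-0.47 ± 0.18, adjusted p = 0.17). Tmem198b and Dnajc14, which share a window, followed with a mean of 37.9 ± 9.09 RPKM (SD, n = 4) in epiblast and 32.4 ± 4.61 RPKM in ExE, and then Pmaip1. The ETS repressor gene Etv6 (34.9 and 26.1 RPKM), Afdn, which encodes the junction protein afadin (31.9 and 23.6 RPKM), the non-muscle myosin gene Myh10 (30.9 and 22.1 RPKM) and the glutamine transporter gene Slc1a5 (21.0 RPKM in ExE) did not pass the test either, while Lrig3 (32.9 and 16.6 RPKM, -0.95 ± 0.21, adjusted p = 0.022) did. Several of these starts lay close to a domain edge: that of Slc1a5 at position 16781340 in the domain chr7:16755001-16783500, that of Lrig3 at 125966168 in chr10:125942001-125968500 and that of Afdn at 13760539 in chr17:13698001-13762500.

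H3K36me3 over the genes that start in domains was low. At least 1 RPKM was reached by 2.53 to 6.22% of them per library, against 12.7 to 32.6% of all genes, but in long shared domains the share was lower still, 1.15 to 4.06%. H3K36me3 rose in ExE over 29 of the 434 genes (6.68%), against 31.0% of all genes, and fell over 41 (9.45%), against 6.23% of all genes. After centring 15 rose and 81 fell, whereas among genes with a mean of at least 0.5 RPKM 31 rose and 23 fell, so the balance of directions depended on the processing. In B6/CAST alone 22 rose and 58 fell, and in CAST/B6 alone 2 and 12. The number called was 40 to 45 without B6/CAST ExE replicate 1, CAST/B6 ExE replicate 2, CAST/B6 Epi replicate 1 or CAST/B6 Epi replicate 2.

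Pmaip1 had the largest fall, from 2.81, 1.76, 3.15 and 3.24 RPKM in epiblast to 1.18, 1.34, 0.94 and 0.994 RPKM in ExE (-0.98 ± 0.12, adjusted p = 0.0012). Igfbp2 fell from 1.64, 1.09, 1.37 and 1.37 RPKM to 0.531, 0.628, 0.618 and 0.614 RPKM (-0.76 ± 0.12, adjusted p = 0.0026). The tissues did not overlap in either gene, and both also had less H3K4me3 at the start. Ifitm7 (-0.60 ± 0.07), the PDZ scaffold gene Mpdz (-0.55 ± 0.08) and Rhobtb3 (-0.49 ± 0.06) fell as well. Rises were seen over Gm6871 (0.54 ± 0.10), the apolipoprotein gene Apoa5 (0.54 ± 0.14), Rangap1, which encodes the activator of the Ran GTPase (0.50 ± 0.07), Zfp746 (0.45 ± 0.08) and Rnf14 (0.44 ± 0.06). Rangap1 had 1.81, 1.76, 1.5 and 1.51 RPKM in ExE and 0.896, 0.908, 1.14 and 1.15 RPKM in epiblast, which did not overlap.

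Over whole domains, H3K4me3 was higher in ExE in 57 (2.61%), against 3.70% of all peaks, and lower in 62 (2.84%), against 9.38% of all peaks and 21.7% of long shared domains. Among peaks with a mean of at least 0.5 RPKM 20 domains were higher and 66 lower, with centring 53 and 81, and with edgeR on recovered reads 81 and 68, so the balance was not stable. With the replicate block 26 were higher and 51 lower, of which 73 were among the 119 called without it. The number called was 77 without B6/CAST ExE replicate 1 and 74 without CAST/B6 ExE replicate 1, and in B6/CAST alone 23 were higher and 32 lower, against 6 and 33 in CAST/B6 alone. H3K36me3 over whole domains was higher in 2, against 0.169% of all peaks, and lower in 26, against 0.617% of all peaks. That count rested on every library, since leaving out any 1 of the 8 gave 0, and neither cross alone nor the replicate block gave a call. An unadjusted p below 0.05 was reached by 17 domains higher and 378 lower, and edgeR on recovered reads called 14 and 387, whereas centring left 2 and 5.

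Parental bias of ExE H3K27me3 could be tested in 2148 of the domains, with a median of 823 allelic reads over the 4 wild-type libraries, against 385 over all 18592 informative peaks and 1733 in long shared domains. A domain was called imprinted when edgeR's quasi-likelihood test passed in both wild-type crosses toward the same parent, adjusted over all informative peaks. This held for 75 domains (3.49%), against 1.35% of all peaks, 2.95% of the deeper long shared domains and 0.342% of the shallower short ExE-only peaks. The paternal allele was higher in 70 (3.26%), against 1.12% of all peaks, and the maternal allele in 5. DESeq2 called 28 and a joint fit of both crosses 311, and the number was 37 without B6/CAST replicate 1, 46 without B6/CAST replicate 2 and 44 without CAST/B6 replicate 1.

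**Figure D4:**
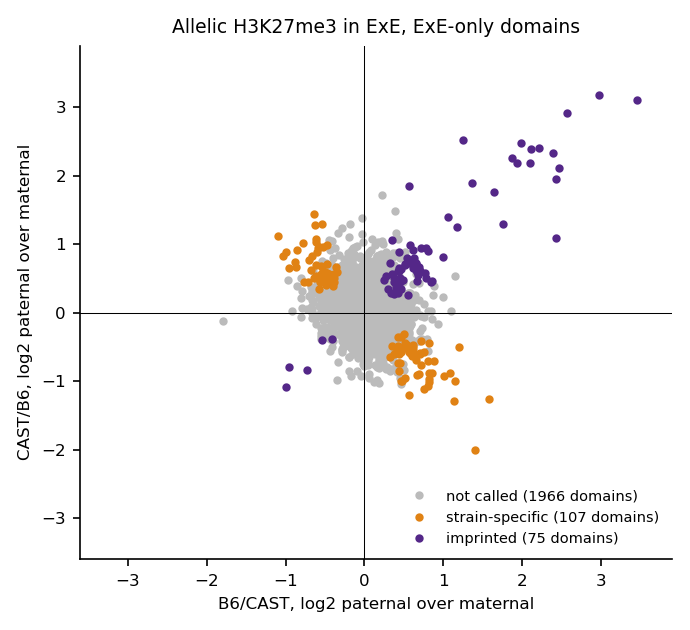
Log2 paternal over maternal H3K27me3 in ExE for the 2148 informative domains, B6/CAST (x) against CAST/B6 (y), each point 1 domain with 2 libraries per cross. The 75 imprinted domains lie in the upper right and lower left, and the 107 strain-specific domains in the other 2 quadrants, and the largest biases are paternal in both crosses.

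The imprinted domains gathered on chromosome 17. Within 15 Mb of the start of Airn (chr17:12741311-12860136, plus strand), a window set after these values were seen, 20 of 23 domains were imprinted, all with the paternal allele higher. They lay 0.74 to 9.15 Mb from that start on both sides, covered 2.17 Mb and had a median bias of 2.10 on the log2 scale (0.65 to 3.28, mean of both crosses). In 22 of the 23 domains the paternal allele was higher in both crosses. Summed over the 20 domains, the maternal share of allelic reads was 19.3% and 20.4% in B6/CAST and 17.8% and 20.3% in CAST/B6, against 49.2 to 51.4% over the 2073 informative domains that were not called imprinted.

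The largest bias was that of chr17:5161501-5188500 within Arid1b, a chromatin remodelling gene, with 11 maternal and 199 paternal reads and 20 and 126 reads in the 2 B6/CAST libraries and 25 and 260 and 21 and 146 reads in CAST/B6 (log2 3.45 and 3.11). The Thbs2 domain had 440 and 1778 and 345 and 1407 reads in B6/CAST (2.10) and 577 and 2752 and 342 and 1509 reads in CAST/B6 (2.18). In both domains every library had more paternal than maternal reads. The 381 kb domain near Qk followed the same pattern (2.43 and 1.95), as did 3 domains near Nox3, an NADPH oxidase gene of the inner ear: chr17:3629001-3823500, which holds its start (1.87 and 2.26), chr17:3828501-4020000 (2.11 and 2.39) and chr17:4088501-4342500 (2.22 and 2.41).

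A further group, likewise delimited after its values were seen, lay on chromosome 7. Within 15 Mb of the start of Kcnq1ot1 (chr7:143203458-143296549, minus strand) 16 of 45 domains were imprinted, all paternal, at 1.5 to 14.1 Mb on the side of lower coordinates. Most of the window on the other side lies beyond the end of the chromosome. The 16 domains had a median bias of 0.61 (0.32 to 0.85), below that around Airn, and in 38 of the 45 the paternal allele was higher in both crosses. The maternal share was 42.4% and 42.3% in B6/CAST and 37.2% and 39.3% in CAST/B6. Among them were the 257 kb domain over Tcerg1l, chr7:138004501-138261500 (0.58 and 0.98), the 193 kb domain chr7:138495501-138688500 (0.80 and 0.90) and chr7:141744501-141858000, which holds the starts of the mucin genes Muc5ac and Muc5b (0.67 and 0.46).

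The maternal allele was higher in 3 domains within 15 Mb of the start of Meg3 (chr12:109541001-109571726, plus strand), a maternally expressed non-coding RNA of the Dlk1-Dio3 region, in a window set the same way. They lay 0.297 to 0.547 Mb from it, at chr12:109823001-109854000 (-0.96 and -0.79), chr12:109859001-109900000 (-0.99 and -1.08) and chr12:110028001-110148500 (-0.73 and -0.84), among 29 domains of that window. Their maternal share was 65.5%, 64.2%, 65.9% and 62.8% in the 4 wild-type libraries. The other 2 maternal domains were chr5:53138001-53170500 within Sel1l3 (-0.41 and -0.39) and chr17:47298501-47341500, 27.4 kb from Mrps10 (-0.54 and -0.40).

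Outside these 3 windows 36 domains on 13 chromosomes were imprinted, 34 of them paternal, and their bias was 0.32 to 1.23 in size with a median of 0.59. Named after their values were seen, the largest was chr2:10600001-10691500, a domain of 91.5 kb whose nearest start, 229 kb away, is that of Sfmbt2, a Polycomb group gene (1.06 and 1.39). A group of 3 domains lay within Zfhx3, a transcription factor gene, on chromosome 8 (means 0.66, 0.52 and 0.69), and single domains lay within Flt1, which encodes a receptor of vascular endothelial growth factors (0.56 and 0.72), and over the start of Egf (0.46 and 0.64).

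Maternal deletion of Dnmt3a and Dnmt3b in the oocyte was followed by a smaller parental bias around Airn. The change of the bias between matDKO/CAST and B6/CAST passed the test in 29 domains (1.35%), against 0.742% of all informative peaks, and in all 29 it moved toward the maternal allele. This direction was also that of 131 of the 138 changed peaks over all informative peaks and of 78 of the 81 in long shared domains. With the library as a replicate block 49 passed, with DESeq2 19, and 16 without B6/CAST replicate 1. The matDKO/CAST reads were split by a separate procedure that also assigned 129 alleles to the mother, and its part in these changes was not tested; over the domains not called imprinted the maternal share was 56.4% and 53.1% in matDKO/CAST, against 49.2 to 51.4% in wild type.

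Of the 20 imprinted domains around Airn, 17 changed. Their maternal share rose to 47.1% and 46.6% in matDKO/CAST, and their median bias was 0.43 (-0.56 to 0.91, above 0 in 18 of 20) against 2.04 in B6/CAST. Here and below, maternal shares are of raw reads, whereas log2 biases are scaled by allele column, so the measures need not match. At the 381 kb domain matDKO/CAST had 1587 maternal and 2015 paternal reads and 983 and 1312 reads (log2 0.66, change -1.79, edgeR adjusted p = 3.5e-18), where B6/CAST had 509 and 2735 and 492 and 2392 reads. Total H3K27me3 in ExE was not lower with it: the median of these 20 domains was 1.38 and 0.946 RPKM in matDKO/CAST and 0.923, 0.864, 0.937 and 0.814 RPKM in wild type, and none of the 20 passed the test of total signal.

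Around Kcnq1ot1 3 of the 16 imprinted domains changed (chr7:137612001-137641500, chr7:138495501-138688500 and the Muc5ac domain), the median matDKO/CAST bias was 0.05 (-0.26 to 0.40) against 0.51 in B6/CAST, and the maternal share was 55.6% and 51.4%, just below that of the domains not called imprinted. Around Meg3 0 of 3 changed, and the bias was -1.20 at the median (-1.30 to -0.58) with a maternal share of 70.2% and 65.2%. Of the 36 imprinted domains elsewhere 1 changed, chr17:66714501-66758500 within Ptprm (-0.83, adjusted p = 0.028). The 34 paternal ones had a median bias of 0.05 in matDKO/CAST (-0.21 to 0.85) and a maternal share of 55.1% and 50.5%, against 39.6 to 42.8% in wild type. At the domain nearest Sfmbt2 the bias in matDKO/CAST was 0.85 (change -0.22, adjusted p = 0.89). All imprinted domains, those around Airn included, had been called on the wild-type biases. A smaller median bias in matDKO/CAST libraries, which did not enter the call, is therefore partly built into the choice. The change passed the test in 17 of the 20 imprinted domains around Airn but in few of the others.

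**Figure D5:**
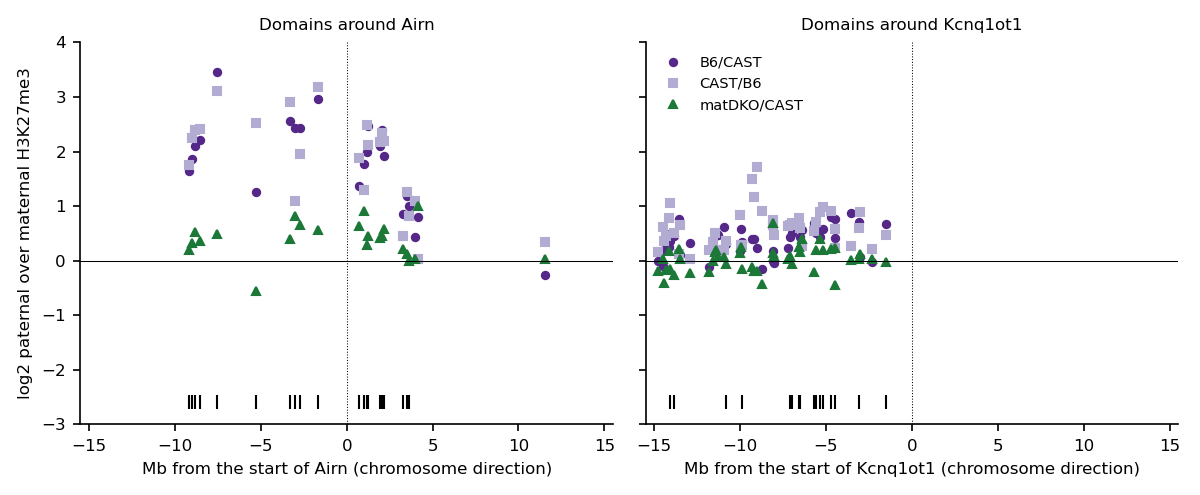
Parental bias of H3K27me3 in ExE (log2 paternal over maternal) of each informative domain against its distance in Mb from the start of Airn (left) or Kcnq1ot1 (right), for both wild-type crosses and for matDKO/CAST; ticks at the bottom mark imprinted domains. Around Airn the imprinted domains have a bias of 0.65 to 3.28 in wild type as the mean of both crosses and -0.56 to 0.91 in matDKO/CAST. Around Kcnq1ot1 the bias is smaller and all domains lie toward lower coordinates, where most of the window on the other side lies beyond the chromosome end.

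Of the 29 changed domains, 8 were not imprinted in wild type and are named after their values were seen. In chr11:58356001-58468500, which holds Lypd8, Lypd9 and Olfr30, the 2 matDKO/CAST libraries had 183 maternal and 10 paternal reads and 194 and 8 reads, whereas B6/CAST had 25 and 15 and 12 and 18 reads (change -4.04, adjusted p = 2.3e-10). Total H3K27me3 there was 0.747 and 0.623 RPKM in matDKO/CAST ExE, against 0.629 to 0.784 RPKM in wild type, while the number of maternal reads was higher than in any wild-type library. On the same chromosome, chr11:58771501-58804000, with Fam183b, Olfr314 and Olfr315, had 52 and 6 and 67 and 6 reads against 11 and 15 and 10 and 14 reads (change -3.57, adjusted p = 5.3e-06). The domain with more total H3K27me3, chr3:37766501-37799000, had 201 and 73 and 186 and 67 reads against 90 and 125 and 70 and 70 reads (change -1.56, adjusted p = 2.5e-07). The others were chr7:89836501-89858000, chr7:139732501-139792000, chr15:34291001-34311000, chr15:39178001-39208000 and chr19:57219001-57248000.

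Strain bias was about as frequent as over all peaks. H3K27me3 was strain-specific in 107 domains (4.98%), against 4.32% of all peaks and 6.37% of long shared domains, and was higher on the B6 allele in 52 and on the CAST allele in 55. DESeq2 called 12, the joint fit 593, and the number was 23 without B6/CAST replicate 1, 36 without B6/CAST replicate 2 and 57 without CAST/B6 replicate 1. The largest was chr19:4929501-4962500, which holds the starts of Mrpl11, a mitochondrial ribosomal protein gene, and Peli3. In B6/CAST it had 85 maternal and 222 paternal reads and 65 and 155 reads, and in CAST/B6 409 and 84 and 225 and 73 reads, so CAST reads were in excess in every library (mean log2 B6 over CAST -1.71). Likewise CAST was higher at chr16:12022501-12043500 within Shisa9 (-1.42) and at the Rims2 domain chr15:39178001-39208000 (-1.22), whose start had the strongest epiblast H3K4me3. B6 was higher at chr13:97406001-97426000 (1.10), chr1:184542501-184570500 (1.04) and chr6:4554001-4599000, 1.84 kb from Casd1 (0.95). In matDKO/CAST, which did not enter the call, the same allele was higher in 9 of the 10 domains with the largest strain bias, among them the Mrpl11 domain (67 and 139 and 78 and 106 reads) and the Casd1 domain (177 and 78 and 144 and 67 reads). The exception was the Rims2 domain, where maternal reads were in excess (43 and 28 and 39 and 13 reads, log2 paternal over maternal -0.73 against 1.14 in B6/CAST, change -1.87, edgeR adjusted p = 0.00012).

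Allelic H3K4me3 peaks in the domains were mostly not parental. ExE H3K4me3 peaks overlapped 972 domains with 1457 peaks, of which 697 in 547 domains were informative. Of these, 2 were imprinted (0.287%), against 0.319% of all 23211 informative peaks, and 46 (6.60%) were strain-specific, against 3.96% of all, 28 toward B6 and 18 toward CAST. DESeq2 called 0 imprinted and 2 strain-specific peaks. Without CAST/B6 replicate 2 the numbers were 1 and 7, and 19 and 17 strain-specific peaks were left without replicate 1 of B6/CAST or CAST/B6. The imprinted peaks, named after their values were seen, were both paternal. At chr8:80915001-80920000, 34.5 kb from the start of Gab1, the 4 wild-type libraries had 62, 44, 29 and 24 paternal and 3, 8, 9 and 0 maternal reads, and at chr15:97135001-97145500, 79.0 kb from that of Slc38a4, 100, 74, 57 and 36 paternal and 28, 22, 22 and 8 maternal reads. Every library had more paternal reads. In matDKO/CAST paternal reads were also in excess, 15 and 12 against 10 and 3 at the first peak and 47 and 51 against 23 and 16 at the second. The H3K27me3 of both domains was not called for either parent.

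Of the 46 strain-specific H3K4me3 peaks, a minority of 19 lay in a domain whose H3K27me3 leaned toward the other strain, and the others did not. In 6 cases the domain also passed the H3K27me3 strain test, 4 of them toward the other strain. The peak with the largest strain bias, chr6:95215501-95217500, had 24 and 22 B6 reads and 0 and 1 CAST reads in B6/CAST and 14 and 12 B6 reads and 0 and 0 CAST reads in CAST/B6. Counts of 0 and 1 limit how well such a ratio is known.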

How the data were processed

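Native ChIP-seq of H3K4me3, H3K27me3 and H3K36me3 and input chromatin of mouse epiblast or ExE at E6.5 gave 51 libraries (2 per cross, tissue and mark; 2 or 3 inputs), and the chromatin of a pool was split between the antibodies and the input. The authors trimmed reads with Trim Galore 0.4.4 and aligned them with Bowtie2 2.3.2, versions as in the submitters' processing notes, to GRCm38 with strain variants masked. The authors deposited RPKM values per 1 kb window, raw allelic read counts per peak, and peak lists whose score column is 0 throughout, called with chromstaR per wild-type cross and tissue on the replicates together.

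Windows were averaged over peaks, over genes or within 1 kb of starts of GENCODE vM21 protein-coding genes, with the listed start and end of each peak; the names of 847 domains carry other coordinates. limma 3.58.1 (trend) was run in R 4.3.3 on log2(RPKM + 0.5) of the 12 libraries of a mark, with a mean per cross and tissue, two-sided, Benjamini-Hochberg adjusted over all features, threshold 0.05. Fold changes on this scale understate those of low values. Every RPKM value was a whole number of reads (100%, tolerance 0.05 reads), and edgeR 4.0.16 on these reads called 577 domains for H3K27me3 between the matDKO/CAST tissues, 67 starts and 149 domains for H3K4me3, 99 genes and 401 domains for H3K36me3, and 29 domains for matDKO/CAST against wild type. Allelic counts were tested with edgeR's quasi-likelihood test, TMM factors, on peaks with at least 20 reads in 1 allele column, each cross on its own. Read counts are not independent molecules, and p-values cover the spread between 2 pools per group.

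Named were the 10 longest domains, the 5 with most ExE H3K27me3, the 5 with most starts, the 10 with the largest parental and strain bias, up to 5 changed in matDKO/CAST each way, the 10 starts (H3K4me3) and 5 genes (H3K36me3) changed most each way, and the 10 starts with most H3K4me3 in epiblast; tied windows count together. The values of 1 domain are not reported here, while counts and summaries include it. The domains, gene lists and tests were chosen with earlier results of these data known. Same-numbered ExE and epiblast libraries deviated together for H3K4me3 (correlations 0.47, 0.425 and 0.22), so the replicate number was also fitted as a block; for H3K27me3 (-0.044 to 0.089) and H3K36me3 (0.006 to 0.047) they did not. Analyses were checked on simulated data. Alternatives were other pseudocounts, a filter on low RPKM, median centring, input subtraction, DESeq2 1.42.0, other normalization, a joint fit of both crosses, leaving out each library and, added after seeing the data, each cross alone.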

Additional observations from a re-analysis of the deposited data

Results flagged for a closer look

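The parental bias of ExE H3K27me3 differed between matDKO/CAST and B6/CAST, by the test of that difference, in 29 domains, each time toward the maternal allele, as in 131 of the 138 changed peaks over all informative peaks. On chromosome 17 the change on the log2 scale was -1.79 at chr17:9812001-10193000, -1.87 at chr17:4088501-4342500, -0.65 at chr17:15898501-16106500 and -1.56 at chr17:3629001-3823500. It was -1.69 in the Thbs2 domain chr17:14587001-14758000 and -2.96 in the Arid1b domain chr17:5161501-5188500. Further changes there were -2.18 at chr17:9351501-9490500, -1.95 at chr17:14763501-14800500, -2.03 at chr17:13967001-14011000, -1.60 at chr17:3828501-4020000 and -1.71 at chr17:13923501-13953500. Elsewhere the change was -0.60 at chr7:138495501-138688500, -4.04 at chr11:58356001-58468500, -1.87 in the Rims2 domain chr15:39178001-39208000 and -1.56 at chr3:37766501-37799000. The part of the separate allele assignment in matDKO/CAST was not tested.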

How the results depend on the processing

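The set itself numbered 1074 domains at a minimum of 30 kb, 1500 when each ExE list had to cover at least 50% of a domain and 1858 with the coordinates in the peak names. For H3K27me3 between the matDKO/CAST tissues, 337 domains became 151 with median centring, 577 with edgeR and 18 to 491 with 1 library left out. For H3K4me3 at starts, 41 became 105 with centring, 67 with edgeR, 13 in B6/CAST alone, 16 in CAST/B6 alone and 21 to 45 with 1 library left out. H3K36me3 over genes gave 70, 14 in CAST/B6 alone and 40 to 55 with 1 library left out. H3K4me3 over whole domains gave 119, 55 and 39 in the single crosses and 74 to 152 with 1 library left out. H3K36me3 over whole domains gave 28, 7 with centring, 401 with edgeR, 0 in either cross alone and 0 with any library left out. Total H3K27me3 in matDKO/CAST against wild type gave 2 domains, 1 with a pseudocount of 0.1, 12 with centring, 29 with edgeR and 0 to 1 with 1 library left out.

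Of the allelic results, 75 imprinted domains became 28 with DESeq2, 311 in the joint fit and 37 to 65 with 1 library left out, and 107 strain-specific domains became 12, 593 and 23 to 79. The 29 changes in matDKO/CAST became 19 with DESeq2 and 16 to 27. The 2 imprinted H3K4me3 peaks became 0, 6 and 1 to 2, and the 46 strain-specific ones 2, 171 and 7 to 32.

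With the replicate block, counts were 516 for H3K27me3 in matDKO/CAST (290 of them among the 337), 17 for H3K4me3 at starts, 66 for H3K36me3 over genes, 77 and 0 for H3K4me3 and H3K36me3 over whole domains, 0 for total H3K27me3, 92 and 145 for imprinted and strain-specific domains, 49 for the change in matDKO/CAST, and 2 and 58 for H3K4me3 peaks. The labels do not say whether same-numbered libraries of ExE and epiblast came from the same embryos. For H3K27me3 and H3K36me3 their deviations were nearly uncorrelated, as were those of H3K27me3 ExE libraries of different crosses (-0.095 to 0.054).

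No named gene or domain that passed a test reversed its direction under the alternatives run for it. Of values that had not passed, H3K4me3 at the shared start of Tmem198b and Dnajc14 went from -0.21 to 0.09 with centring, and values crossed 0 for total H3K27me3 in matDKO/CAST in 15 of 37 named domains, for the change of the parental bias in 6, for the parental bias in 14 and for the strain bias in 9. Allelic calls need SNP-spanning reads, of which the median domain had 823 over 4 libraries, and calls that were lost do not show equal alleles. The cause of these differences was not tested.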
